A study of Homo sapiens with 9 samples.

Results

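The COPI coat subunits ARCN1, COPA, COPB1, COPB2, COPE, COPG1, COPG2 and COPZ1 were examined, 8 of the 26485 gene models counted in 9 RNA-Seq libraries of HAP1 cells. ARCN1 was picked because its level was lower in every single cell than in every library of more cells, and the other subunits were taken because they belong to the same coat. The values of ARCN1 in single cells against libraries of more cells are therefore given as a description, without a test. HAP1 is a near-haploid human line that grows attached to its dish and descends from KBM-7, a line of chronic myeloid leukaemia. All cells were wild type (WT), and the labels name no treatment. They were sorted by flow cytometry into lysis buffer, and total RNA was isolated with NAxtra magnetic beads from single cells (3 libraries), 10 cells (2), 100 cells (2) and 1000 cells (2) before SMART-Seq Stranded libraries were made. The study asked whether RNA isolated from so few cells gives usable transcriptomes. The labels call the libraries of a cell number biological replicates but do not say that they came from separate cultures, so the p-values measure the spread between these libraries only. HAP1 here is a single line without a second clone for comparison. The study reports subpopulations within the line, which the comparisons below did not separate.

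COPI, or coatomer, is the protein coat that forms vesicles on Golgi membranes and carries proteins and lipids back to the endoplasmic reticulum and between Golgi cisternae. The small GTPase ARF1, loaded with GTP by the exchange factor GBF1, recruits the whole coat from the cytosol to the membrane. The subunits β, δ, γ and ζ form a subcomplex related to the clathrin adaptors, while α, β′ and ε form a cage-like subcomplex in which α and β′ read the dilysine retrieval signals of cargo. ARCN1 encodes δ, COPB1 β, COPA α, COPB2 β′ and COPE ε. The γ and ζ subunits each have a pair of paralogues, COPG1 and COPG2 for γ, and COPZ1 and COPZ2 for ζ.

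In the hg38 coordinates of the count files, ARCN1 lies on the plus strand at chr11:118572387-118603032 with 4015 exonic bases in 10 blocks, and no other gene model shares its exons. The exons of COPG2, on the minus strand at chr7:130506239-130668758, share 113 of their 4029 bases with TSGA13 on the same strand, so reads in that stretch cannot be assigned to either gene, and a further 59 and 112 bases with MEST and COPG2IT1 on the opposite strand. COPA at chr1:160288587-160343564 shares 209 exonic bases with NCSTN on the opposite strand, which the stranded counting separates. The longest run of bases that transcripts of COPG1 and COPG2 have in common is 23 bases, shorter than a 50-base read. Runs of 50 bases in the GENCODE transcripts of each gene were also sought in genes at other loci. Genes that overlap the subunit's own locus were left out, so the overlaps of COPG2 and COPA given above are not covered. Of all distinct runs, 0.324% in ARCN1, 0.0195% in COPA and 1.09% in COPB2 also occur at another locus, and none in the other 5 subunits.

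The start-site windows of 4 subunits are shown to set the δ gene beside partners with other patterns in single cells. They are COPB1, whose mean difference was nearest to that of ARCN1, COPG2, which differed in the opposite direction, and COPZ1, which varied most between cells. Each is the RefSeq sequence of GRCh38.p14 from 250 bases before the start site to 50 bases from it, read 5′ to 3′ on the strand of the gene, at chr11:118572159-118572458 (plus), chr11:14499762-14500061 (minus), chr7:130668699-130668998 (minus) and chr12:54324881-54325180 (plus). Capitals mark the GC box GGGCGG, the CCAAT box, the ETS-type motif CCGGAAG and the unfolded protein response motif TGACGTGG, each on either strand.
ARCN1: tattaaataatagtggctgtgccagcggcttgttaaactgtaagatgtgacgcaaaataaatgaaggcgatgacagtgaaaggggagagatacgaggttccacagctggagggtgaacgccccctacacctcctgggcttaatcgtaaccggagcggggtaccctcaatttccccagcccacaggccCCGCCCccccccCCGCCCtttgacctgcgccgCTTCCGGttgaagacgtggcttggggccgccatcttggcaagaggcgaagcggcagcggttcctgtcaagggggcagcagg
COPB1: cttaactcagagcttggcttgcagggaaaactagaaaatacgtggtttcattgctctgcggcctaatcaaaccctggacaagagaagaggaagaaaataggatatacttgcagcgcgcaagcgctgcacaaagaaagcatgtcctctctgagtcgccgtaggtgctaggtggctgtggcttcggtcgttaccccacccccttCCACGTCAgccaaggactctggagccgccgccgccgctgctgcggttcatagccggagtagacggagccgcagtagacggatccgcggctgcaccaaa
COPG2: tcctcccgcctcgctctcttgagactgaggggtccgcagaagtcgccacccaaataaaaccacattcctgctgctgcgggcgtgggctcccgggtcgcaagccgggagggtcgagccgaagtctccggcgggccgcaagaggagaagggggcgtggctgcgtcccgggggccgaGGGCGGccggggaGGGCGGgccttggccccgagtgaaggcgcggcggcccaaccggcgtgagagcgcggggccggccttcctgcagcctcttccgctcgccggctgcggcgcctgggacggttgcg
COPZ1: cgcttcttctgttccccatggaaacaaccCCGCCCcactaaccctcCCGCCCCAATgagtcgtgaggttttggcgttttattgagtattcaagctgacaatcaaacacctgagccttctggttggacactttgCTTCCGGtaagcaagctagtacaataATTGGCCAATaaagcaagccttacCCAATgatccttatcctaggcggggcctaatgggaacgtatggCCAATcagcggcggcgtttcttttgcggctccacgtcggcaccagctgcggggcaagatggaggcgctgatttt

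In the ARCN1 window, GGGCGG occurred on the minus strand at -63 and -51 and CCGGAAG on the minus strand at -31, counted from a start site at 0. COPB1 held a single TGACGTGG on the minus strand at -48, and neither GGGCGG nor CCGGAAG. COPG2 held GGGCGG at -76 and -63 in a window of 73.7% GC with 37 CpG dinucleotides, whereas the ARCN1 window had 59% GC and 18 CpG. The median of all 35116 windows of this length was 58.7% GC and 14 CpG. COPZ1 held 5 copies of CCAAT, one of which shares a base with a GGGCGG match at -204. Among the 8 subunits, CCGGAAG occurred in 6 windows (10.3% of all windows), GGGCGG in 6 (45%), TGACGTGG in COPA, COPB1 and COPB2 (0.729%), the NRF1 motif in 3 (5.78%) and CCAAT in 2 (34.6%). TATAAA (11.5% of all windows) and the endoplasmic reticulum stress response element (0.0769%) had no match in any of the 8. COPB2 has a further annotated start nearby, and its first window was used. All motifs were searched on both strands, and a match is a description of the sequence.

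The libraries held 42842970 to 61645865 counts, with 51137806 to 53491792 in the single cells. A gene count of at least 1 was found for 13968 to 14478 genes in single cells and for 16283 to 18634 genes in libraries of more cells. Every COPI subunit had at least 717 counts in every library. Counts come from PCR-amplified reads without molecular identifiers, so detection limits drawn from counts cover counting error only. The intervals of the log2 differences given below rest on the spread between libraries. BCR and ABL1, the fused genes of this line, were detected in all libraries (summed level 13.8 to 44.2 CPM in single cells and 32.9 to 39.7 CPM in libraries of more cells), where CPM is the count scaled to a library of 1000000 counts after TMM. Keratinocyte markers (3 of 3) were at 0 throughout, leukocyte markers summed to 0 to 2.80 CPM in single cells and 0 to 0.445 CPM in the others, fibroblast markers (6, with DCN and LUM at 0) to 7.59 to 15.3 CPM in single cells and 9.99 to 18.2 CPM in the others, and plasma cell markers (5, led by SDC1) to 42.6 to 61.9 CPM in single cells and 46.6 to 54.4 CPM in the others. Their part in the results was not tested.

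The δ subunit gene ARCN1 had 205.1, 216.8 and 199.0 CPM in the 3 single cells, against 300.8 and 325.5 CPM in 10 cells, 324.9 and 312.1 CPM in 100 cells, and 295.3 and 308.0 CPM in 1000 cells. The single cells averaged 207.0 ± 9.03 CPM (SD, n = 3) and the other libraries 311.1 ± 12.3 CPM (SD, n = 6). The mean in single cells was 66.5% of that in the other libraries, with a gap between the highest single cell at 216.8 CPM and the lowest other library at 295.3 CPM. The fitted log2 difference of single cells from the other libraries was -0.59. It stayed between -0.62 and -0.56 under all 18 alternative settings, which included leaving out each library. These values chose the gene, and the alternatives reuse them, so the narrow range is no further support. COPA came nearest to the same pattern without meeting it, since its highest single cell, at 170.3 CPM, was above the lowest other library, at 169.5 CPM.

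**Figure D1:**
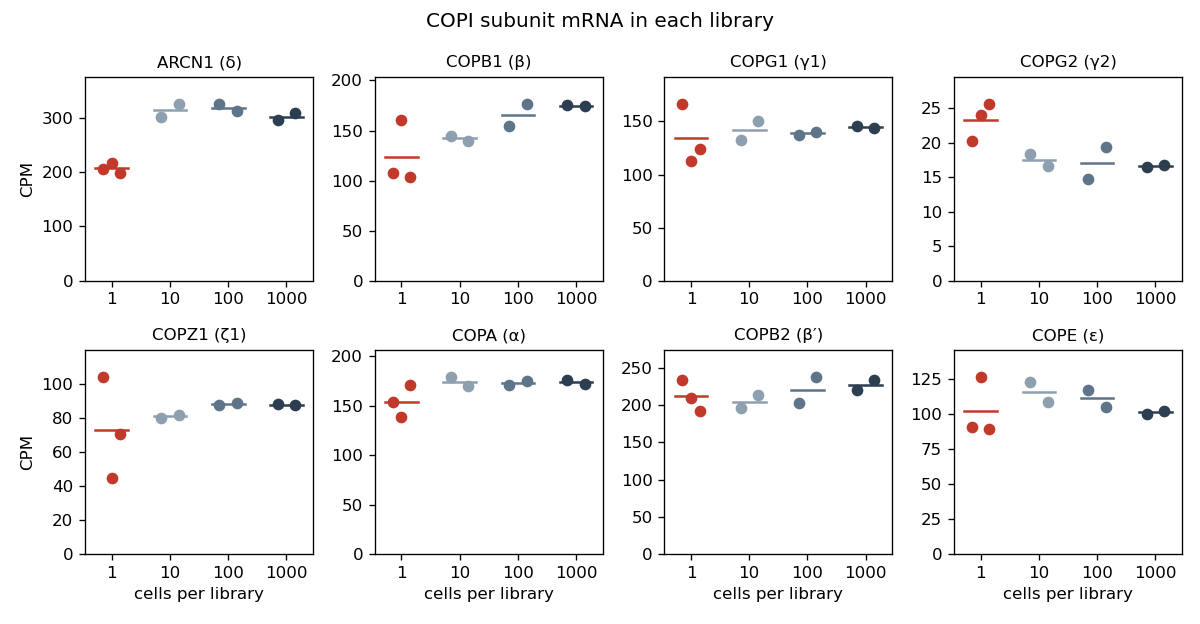
Level of each COPI subunit mRNA in CPM (vertical axes, each from 0) by number of cells in the library (horizontal axes). Points are the 9 libraries and lines the means of each cell number. ARCN1 was at 199.0 to 216.8 CPM in single cells and 295.3 to 325.5 CPM in the others. Only for ARCN1, which was picked for this, and COPG2 did all single cells lie on the same side of all other libraries. Of all genes tested, 15.0% did so.

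Of the 8 subunits, only ARCN1 lay lower in all single cells than in all other libraries, a pattern found in 10.0% of the 15603 genes tested, and only COPG2 lay higher, which was found in 4.98%. None of the 7 other subunits passed edgeR's quasi-likelihood test at an adjusted p of 0.05, which 6.67% of all genes did. That background count of 1041 genes was 0 without 100 cells Rep 2, 1000 cells Rep 1 or 1000 cells Rep 2, 669 without 10 cells Rep 2, 679 without 100 cells Rep 1, and 2869, 3188 and 2406 without Single Cell Rep 1, Rep 2 and Rep 3 in turn. At an unadjusted p under 0.05 there were 2 (COPB1 and COPG2), beside 24.5% of all genes. With DESeq2's test, 1 of the 7 (COPG2) passed, beside 17.3% of all genes. Where a subunit is given below as passing with a single cell left out, that cell went least with its direction. Leaving out that cell favours a pass, and these settings also called 2869, 3188 and 2406 of all genes. Such passes are not used as support. The median log2 difference of the 7 was -0.10, with 6 of 7 below 0, and the median of all genes was 0.01. The edgeR fit gives each gene a common dispersion for single cells and the other libraries. Each of the 7 spread more among single cells, as COPZ1 did (SD of log2 CPM 0.61 against 0.063). The SEs and intervals below can therefore be too narrow, and the p-values too small.

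COPB1, the β subunit that binds ARF1 together with γ, had 107.4, 160.0 and 104.1 CPM in the single cells, against 140.0 to 176.7 CPM in the 6 other libraries. Single Cell Rep 1 and Rep 3 were below all other libraries, and Rep 2 was at their mean. The log2 difference was -0.38 (SE 0.14, 95% interval -0.69 to -0.066, edgeR adjusted p = 0.126). Without Single Cell Rep 2 it was -0.61 and passed the test (edgeR adjusted p = 0.00747).

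COPG1, the major γ paralogue, had 166.7, 113.1 and 124.3 CPM in the single cells, against 132.5 to 150.6 CPM in the others. Single Cell Rep 1 was above that range and the other 2 single cells were below it. The log2 difference was -0.07 (SE 0.12, 95% interval -0.33 to 0.18, edgeR adjusted p = 0.751). It depended on the cell left out, with -0.26 without Rep 1 (edgeR adjusted p = 0.0487) and 0.04 without Rep 2.

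COPG2, the minor γ paralogue, had 20.2, 24.1 and 25.6 CPM in the single cells, against 14.7 to 19.3 CPM in the 6 other libraries. All single cells were above all other libraries, in the direction opposite to ARCN1. The log2 difference was 0.45 (SE 0.18, 95% interval 0.051 to 0.85) and did not pass edgeR's test (adjusted p = 0.151). It passed with DESeq2 (0.46, adjusted p = 0.0315) and without Single Cell Rep 1 (0.54, edgeR adjusted p = 0.0492). Expressed per kb of exon, COPG2 made up 8.48%, 14.0% and 13.6% of the summed γ transcripts in the single cells, against 7.56% to 9.56% in the others.

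COPZ1, the small ζ subunit that pairs with γ, had 104.0, 44.5 and 70.5 CPM in the single cells, against 79.8 to 88.4 CPM in the 6 other libraries. Single Cell Rep 1 was above and the other 2 were below every other library, so that the highest single cell had 2.34 times the level of the lowest. The log2 difference of -0.23 (SE 0.20, 95% interval -0.67 to 0.21) did not pass edgeR's test (adjusted p = 0.537). Without Rep 1 it was -0.58 (edgeR adjusted p = 0.0293), and without Rep 2 it was 0.03.

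COPZ2, the other ζ paralogue, had 0 counts in each single cell, 5 counts in 10 cells Rep 2, 7 counts in 1000 cells Rep 1 and 0 in the other 4 libraries. A count of 0 allows 3 counts, or up to 0.0588 CPM in the single cells. COPZ2 was near that limit at 0.102 and 0.161 CPM where it was counted, so a difference between cell numbers was not detectable at this depth, and COPZ1 accounted for nearly all ζ counts.

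Among the cage subunits, COPA (α) had 153.9, 137.9 and 170.3 CPM in the single cells, against 169.5 to 178.8 CPM in the others. Rep 1 and Rep 2 were below and Rep 3 was within the range of the others. The log2 difference was -0.17 (SE 0.080, 95% interval -0.35 to 0.0022, edgeR adjusted p = 0.210), and without Rep 3 it was -0.25 (edgeR adjusted p = 0.0405).

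COPB2 (β′) had 233.6, 209.7 and 192.5 CPM in the single cells, against 195.9 to 238.0 CPM in the others, with 1 single cell just below that range. Its log2 difference was -0.04 (SE 0.089, 95% interval -0.23 to 0.16, edgeR adjusted p = 0.832), and 0.03 without Rep 3. COPE (ε), which stabilises α, had 91.3, 126.7 and 89.4 CPM in the single cells, against 100.4 to 123.1 CPM in the others. Rep 2 was above and the other 2 single cells were below that range, and the log2 difference was -0.10 (SE 0.13, 95% interval -0.37 to 0.17, edgeR adjusted p = 0.686). It was -0.28 without Rep 2 (edgeR adjusted p = 0.0731) and -0.0094 without Rep 3 (edgeR adjusted p = 0.969).

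Taken cell by cell, the subunits outside the range of the other libraries differed between the 3 single cells. Single Cell Rep 1 had 4 of the 8 subunits below the range of the other libraries (ARCN1, COPB1, COPA and COPE) and 3 above it (COPG1, COPG2 and COPZ1). Rep 2 also had 4 below (ARCN1, COPG1, COPZ1 and COPA) and 2 above (COPG2 and COPE). Rep 3 had 6 below, all except COPA and COPG2, and COPG2 above. In the paper's clustering, this last cell grouped with the smaller cluster of cells from another method, apart from the remaining libraries. The paper takes this as detection of subpopulations within the line. Whether the subunit values of Rep 3 go with a subpopulation was not tested. The share of all genes outside the range of the 6 other libraries was not counted for each cell. Counts of all genes differed more between single cells (chi-square per gene 245 to 303) than within pairs of more cells (6.35 to 34.2). These numbers of subunits are therefore a description only. ARCN1 was the only subunit below that range in all 3 cells, which is the pattern that picked it and which 10.0% of genes tested share. Its log2 CPM lay -0.60, -0.52 and -0.64 from the mean of the 6 other libraries. COPZ1 had the lowest value of any subunit in a cell, -0.94 in Rep 2.

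**Figure D2:**
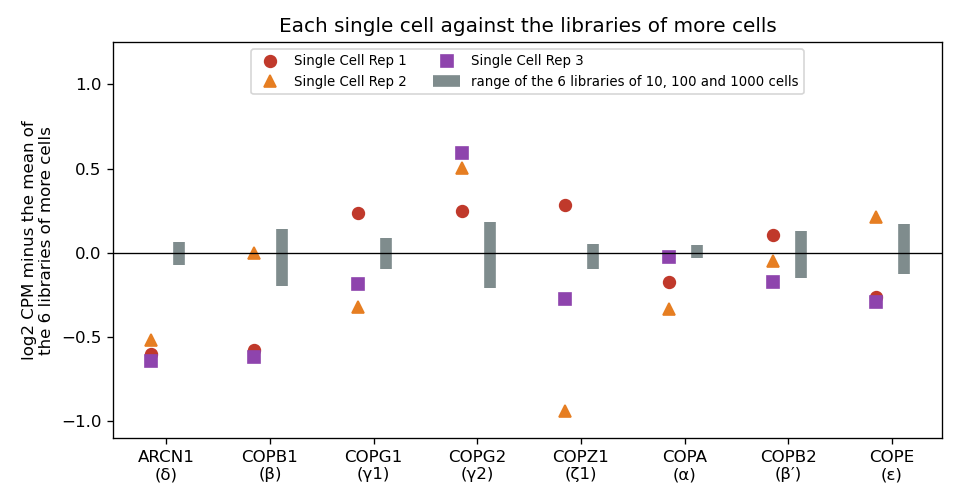
Difference in log2 CPM of each single cell from the mean of the 6 libraries of 10, 100 and 1000 cells (vertical axis), by COPI subunit (horizontal axis). Symbols are the 3 single cells and grey bars the range of the 6 libraries. The cells lie at -0.64 to -0.52 for ARCN1, which was picked for being lower in each of them. They lie on both sides of 0 for COPG1, COPZ1, COPB2 and COPE.

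The spread among the single cells also differed between subunits. The SD of log2 CPM among the 3 single cells was 0.063 for ARCN1 and 0.61 for COPZ1, with the other 6 subunits between 0.14 and 0.35. Genes whose mean log2 CPM over all libraries was within 0.5 of a subunit's served as its comparison. Of 643 genes of a level like ARCN1, 6.22% had a lower SD among single cells, and their median SD was 0.21. The same single-cell values picked ARCN1 for lying below all other libraries, so its SD and its place among like genes are descriptions only. Of 2073 genes of a level like COPZ1, 90.4% had a lower SD, with a median of 0.33. For COPG2, whose SD was 0.18, 5.51% of 2141 like genes had a lower SD. The share of like genes with a lower SD was 24.0% for COPA, 24.2% for COPB2, 47.6% for COPE, 57.6% for COPG1 and 71.5% for COPB1. Among the 6 libraries of more cells, ARCN1 had an SD of 0.057 and COPZ1 of 0.063 on this scale. With only 3 cells, each SD is itself imprecise, and no test was made of these differences.

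**Figure D3:**
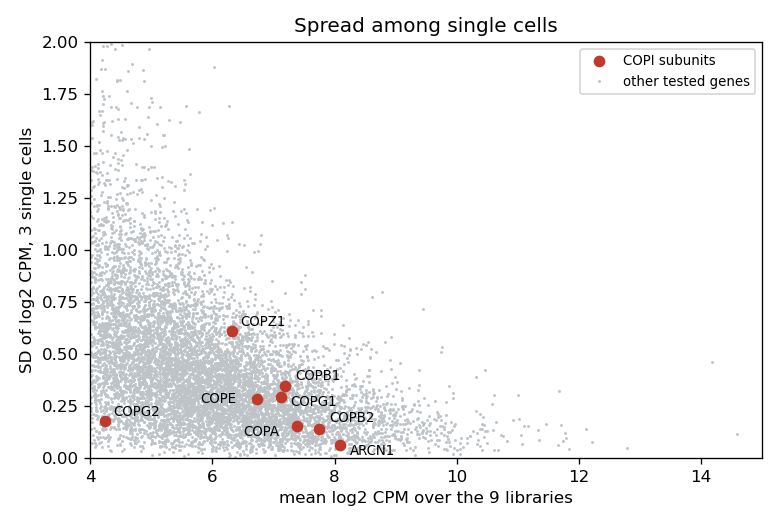
SD of log2 CPM among the 3 single cells (vertical axis) against mean log2 CPM over the 9 libraries (horizontal axis), with COPI subunits in red and other tested genes in grey. Genes with a mean of at least 4 are drawn, and 19 of them lie above the top of the axis at 2. COPZ1 (0.61) stands high and COPG2 (0.18) low among genes of like level, and ARCN1 (0.063), picked on these single cells, is drawn as a description.

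Levels of different subunits were compared per length, as CPM per kb of exon. In libraries of more cells the order by mean level was COPE (96.7), ARCN1 (77.5), COPB2 (68.0), COPG1 (46.1), COPB1 (45.6), COPZ1 (42.3), COPA (30.6) and COPG2 (4.24 CPM per kb). COPG1, COPB1 and COPZ1 differed by less than the SD of COPB1 (4.75), and the ranges of ARCN1 (73.6 to 81.1) and COPB2 (61.2 to 74.3) overlapped. In single cells ARCN1 averaged 51.5 ± 2.25 CPM per kb and stood after COPE (90.4 ± 18.5) and COPB2 (66.2 ± 6.46, SD, n = 3 each). The ranges of ARCN1 (49.6 to 54.0) and COPG1 (36.8 to 54.2) overlapped there. COPG1 averaged 43.8, followed by COPZ1 at 36.1, COPB1 at 35.1, COPA at 27.2 and COPG2 at 5.79 CPM per kb. COPG2 was the least abundant subunit at every cell number, at 5.02 to 6.37 CPM per kb in single cells and 3.65 to 4.80 in the others.

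The summed level of the 8 subunits was 372.9, 365.7 and 329.8 CPM per kb in the single cells, against 404.3 to 420.1 in the others. ARCN1 held 13.7%, 14.8% and 15.0% of this sum in the single cells, against 18.1% to 19.9% in the others. Without ARCN1 the sum was 321.8, 311.7 and 280.3 CPM per kb in the single cells, against 325.9 to 342.4 in the others. Taken singly, none of the other 7 subunits lay below all other libraries in every cell, and COPG2 lay above them. Sums of other genes were not compared. COPB2 took 17.9% to 19.6% of the sum in single cells, against 15.1% to 17.7% in the others, and COPG2 1.35% to 1.93% against 0.883% to 1.14%. The parts of a sum are not independent, and a lower share of ARCN1 raises the shares of the others. The ratio of COPZ1 to COPG1, whose proteins bind each other, was 0.949, 0.598 and 0.863 per kb in the single cells, against 0.827 to 0.972 in the others. The ratio of ARCN1 to COPB1 was 1.68, 1.19 and 1.68 in the single cells, against 1.48 to 2.04 in the others, and the groups overlapped.

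**Figure D4:**
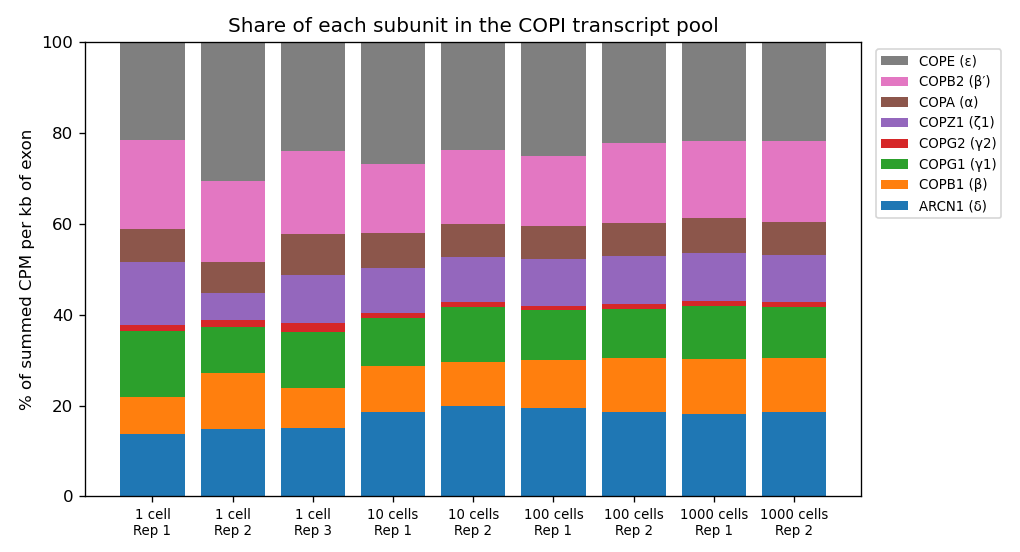
Share of each COPI subunit in the summed CPM per kb of exon of the 8 subunits (vertical axis, %), for each of the 9 libraries (horizontal axis). The ARCN1 segment at the bottom is 13.7% to 15.0% in single cells and 18.1% to 19.9% in the others, and the COPZ1 segment ranges between 6.02% and 13.8% among the single cells.

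The libraries of 10 and of 100 cells were compared with those of 1000 cells. The choice of ARCN1 did not compare these groups with each other, but it required each of these libraries to lie above every single cell. A level in 10 or 100 cells as low as in single cells was thus barred by the choice, and its absence for ARCN1 is no separate result. A CPM is a share of a library's RNA, so in libraries of several cells fewer cells expressing a gene and less of its RNA per cell cannot be told apart. ARCN1 was at 300.8 and 325.5 CPM in 10 cells, against 295.3 and 308.0 CPM in 1000 cells, and the groups overlapped. The log2 difference was 0.06 (SE 0.060, 95% interval -0.080 to 0.20, edgeR adjusted p = 0.748). In 100 cells ARCN1 was at 324.9 and 312.1 CPM, both above the 1000-cell libraries, with a log2 difference of 0.08 (SE 0.058, 95% interval -0.055 to 0.21, edgeR adjusted p = 0.952).

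None of the 8 subunits passed edgeR's test in 10 against 1000 cells, where 0% of the 15449 genes tested passed at an adjusted p of 0.05 and 11.2% had an unadjusted p under 0.05. The groups did not overlap for 4 of 8 subunits, beside 44.5% of all genes. COPB1, COPB2 and COPZ1 were lower, beside 23.5% of all genes, and COPE higher, beside 21.0%. COPB1 was at 144.4 and 140.0 CPM in 10 cells, against 175.3 and 174.6 CPM in 1000 cells, a log2 difference of -0.29 (SE 0.059, 95% interval -0.43 to -0.15, edgeR adjusted p = 0.316). With DESeq2 the same difference passed (-0.29, adjusted p = 0.0129), as it did in edgeR without a filter on low counts (-0.30, adjusted p = 0.04996). COPE was at 123.1 and 108.9 CPM in 10 cells, against 100.4 and 102.4 CPM in 1000 cells, a log2 difference of 0.20 (SE 0.080, edgeR adjusted p = 0.423). DESeq2 called 194 genes in this comparison, or 2.19% of those to which it gave an adjusted p, and 1 of the 8 subunits, COPB1.

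In 100 against 1000 cells none of the 8 subunits passed edgeR's test, as 0% of 15597 genes did, and 2.01% had an unadjusted p under 0.05. The groups did not overlap for 3 of 8 subunits, beside 33.2% of all genes. COPG1 was lower, beside 16.9% of all genes, and ARCN1 and COPE higher, beside 16.3%. The log2 differences lay between -0.08 (COPB1) and 0.14 (COPE), with edgeR adjusted p between 0.952 and 0.986. COPB1 was at 154.2 and 176.7 CPM in 100 cells, and the first of these was below both 1000-cell libraries. Both comparisons share the 1000-cell libraries.

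The genes whose log2 CPM over the 9 libraries ran most like ARCN1 among 9874 genes of at least 10 CPM were NASP (Pearson's r = 0.995), SERBP1 (0.986), MAP4K2 (0.985), DDX10 (0.978) and PAIP1 (0.978), and 156 genes had an r above 0.9. Their single cells lay below the other libraries as those of ARCN1 did, so r over all 9 libraries includes that gap. Within the 6 libraries of more cells, r with ARCN1 was 0.975 for NASP, which encodes a histone chaperone, and 0.424 to 0.583 for SERBP1 and PAIP1, which encode mRNA-associated proteins, DDX10, an RNA helicase, and MAP4K2, a kinase. NASP was at 622.7, 630.4 and 591.1 CPM in single cells, against 769.0 to 854.8 CPM in the others. Among the subunits, r over the 9 libraries was 0.707 for COPB1, 0.638 for COPA, 0.411 for COPE, 0.378 for COPZ1, 0.253 for COPG1, 0.172 for COPB2 and -0.86 for COPG2. Within the 6 libraries of more cells r was -0.46 for COPB1, -0.83 for COPA, 0.25 for COPE and -0.013 for COPZ1. It was 0.22 for COPG1, -0.12 for COPB2 and -0.42 for COPG2. The points share libraries and their scaling, and the values are a description.

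The genes that act with COPI were examined as lists, among them the ARF GTPases and their regulators, the TMED cargo receptors, the KDEL receptors and the tethers and SNAREs that receive COPI vesicles at the endoplasmic reticulum. For the 35 genes reported here, 0 passed edgeR's test in single cells against the other libraries as higher and 0 as lower, beside 2.22% and 4.45% of all genes, and 7 had an unadjusted p under 0.05, beside 24.5%. With DESeq2's test 5 of the 35 passed, beside 17.3% of all genes, and with edgeR 5, 7 and 3 passed without Single Cell Rep 1, Rep 2 and Rep 3 in turn, settings that called 2869, 3188 and 2406 of all genes. Their median log2 difference was -0.02, with 18 of 35 below 0. ARF1 and GBF1, named for their role after their values were seen, had log2 differences of -0.16 (SE 0.061, edgeR adjusted p = 0.132) and 0.08 (SE 0.082, edgeR adjusted p = 0.596).

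Of 15 genes of COPII, the coat that leaves the endoplasmic reticulum for the Golgi, 0 rose and 1 fell by edgeR's test, beside 2.22% and 4.45% of all genes, with a median of 0.09 and 5 of 15 at an unadjusted p under 0.05, beside 24.5%. With DESeq2's test 3 of the 15 passed, beside 17.3%, and with edgeR 3 passed without Single Cell Rep 1 and 2 without Rep 3. The 1 was SAR1A, the GTPase that starts COPII assembly, at 94.6, 91.2 and 82.4 CPM in the single cells, against 108.7 to 123.2 CPM in the others (log2 difference -0.39, SE 0.088, edgeR adjusted p = 0.0289). Its call was lost without 100 cells Rep 2, 1000 cells Rep 1 or 1000 cells Rep 2 (edgeR adjusted p 0.0786 to 0.0820) and in the fit of all 4 cell numbers (0.114). Of 24 genes of clathrin and its adaptors, 0 passed edgeR's test, 0 passed DESeq2's, and 1 had an unadjusted p under 0.05, beside 24.5% of all genes. Their median was 0.04, and -0.04 without Single Cell Rep 1, where 2 of the 24 passed edgeR's test. Without Rep 2, 1 passed. Of 16 Golgi tether genes, 0 passed edgeR's test and 4 had an unadjusted p under 0.05, beside 24.5%. With DESeq2's test 3 of the 16 passed, beside 17.3%, and with edgeR 5, 2 and 2 passed without Single Cell Rep 1, Rep 2 and Rep 3 in turn. Their median was 0.08, and -0.11 without Single Cell Rep 3.

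**Figure D5:**
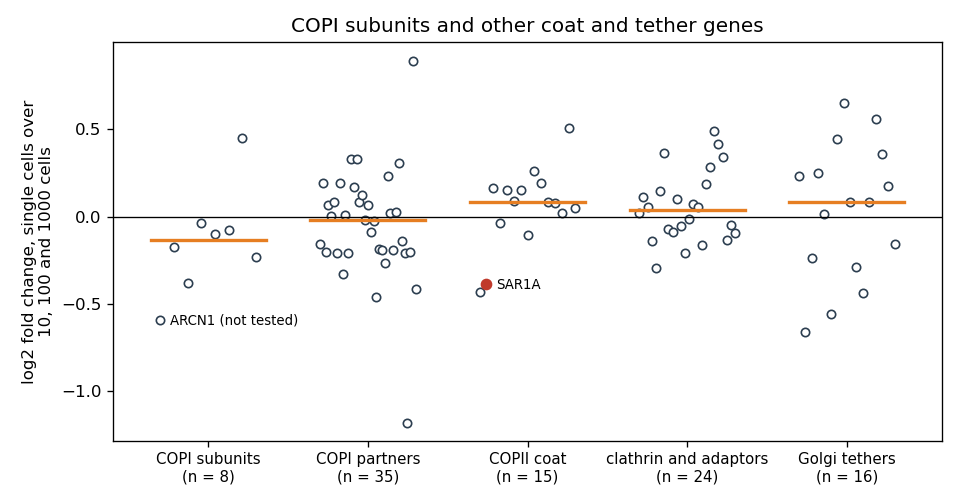
Log2 fold change of single cells over the libraries of 10, 100 and 1000 cells (vertical axis) for COPI subunits and 4 lists of coat and tether genes (horizontal axis). Filled red points passed edgeR's test at an adjusted p of 0.05, open points did not, and orange lines are medians. SAR1A (-0.39) is the gene drawn as passed, and ARCN1 (-0.59) was not tested because it was picked on this contrast.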

How the data were processed

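Per the labels, total RNA of sorted HAP1 cells was sequenced as SMART-Seq Stranded libraries, with 50-base paired reads according to the study's methods. The authors' quality check used FastQC 0.11.9, and adapters were removed by Trim Galore 0.6.7. Alignment to hg38 was by HISAT2 2.2.1, sorting by SAMtools 1.16.1 and exon counting by featureCounts (Subread 2.0.6). The deposited values are raw read counts per gene model for each library, on the reverse strand and without normalization. The command in the file headers counts reads, not read pairs, and drops multi-mapped reads, so a gene with a near-identical copy is undercounted. The annotation release is not given in the sources used here.

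The counts were analysed with edgeR 4.0.16, DESeq2 1.42.0 and limma 3.58.1 (R 4.3.3). CPM used TMM library sizes, with a prior count of 2 for log2 CPM. Each comparison was a quasi-likelihood test in edgeR over all genes kept by filterByExpr, fitted to its own libraries, with Benjamini-Hochberg adjustment at 0.05. The scripts were tested on simulated data. Named were the 8 subunits, COPZ2, the 5 genes of at least 10 CPM with the highest Pearson's r to ARCN1, and every member of the 4 lists that passed the test in single cells. ARF1 and GBF1 were named outside this rule, for their role and after their values were seen. The members and lists were chosen with earlier results of these data known. A gene of the COPI partner list is not reported here, and the counts and median of that list leave it out. Libraries of the same replicate number did not deviate together (r -0.10 to 0.030 between their deviations from group means), so numbers were not treated as pairs. No libraries of a cell number agreed within sampling noise. The alternatives covered scaling, tool, filter, prior count, thinning to the smallest total, a joint fit, leaving out each library, and a term for the replicate number. Promoter windows came from RefSeq (GRCh38.p14), and all 8 subunits matched by symbol.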

Additional observations from a re-analysis of the deposited data

How the results depend on the processing

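In single cells against the libraries of more cells, 1041 genes passed edgeR's test. The count was 2595 with DESeq2, 682 without a filter on low counts, 576 with at least 10 CPM in 2 libraries, 0 in the joint fit of 4 cell numbers (edgeR, 3165 at an unadjusted p under 0.05) and 0 to 3188 with a library left out. With the replicate block it was 2077 (13.3%), among them 2 of the COPI partners, 3 of the COPII genes and 2 of the Golgi tethers, COPA passed at -0.25, COPB2 turned to 0.031 and the Golgi tether median was -0.13. The labels do not say that the numbers pair the libraries, and libraries of the same number did not deviate together. With so few libraries this cannot exclude a shared batch, and which fit is better was not tested. Of the subunits, COPG2 passed with DESeq2 (0.46). With each library left out, the log2 difference ranged between -0.25 and -0.099 for COPA, -0.61 and -0.27 for COPB1, -0.12 and 0.026 for COPB2, -0.26 and 0.037 for COPG1, 0.38 and 0.54 for COPG2, and -0.58 and 0.028 for COPZ1, and the Golgi tether median between -0.11 and 0.16. The share of called genes that were lower was 66.7%, and 45.8% with at least 10 CPM in 2 libraries.

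In 10 against 1000 cells, 0 genes passed with edgeR, 194 with DESeq2, 123 without a filter, 9 with at least 10 CPM in 2 libraries, 55 with the replicate block and 13 to 4721 with a library left out. COPB1 passed with DESeq2 (-0.29) and without a filter (-0.30), and COPA turned to -0.0033 with total counts. The ranges with a library left out were -0.0041 to 0.11 for ARCN1, -0.030 to 0.042 for COPA, -0.32 to -0.28 for COPB1, -0.22 to -0.092 for COPB2, 0.11 to 0.28 for COPE, -0.13 to 0.061 for COPG1 and -0.00048 to 0.14 for COPG2. In 100 against 1000 cells, 0 genes passed with edgeR, 1 with DESeq2, 31 without a filter, 20 with the replicate block and 3 to 4951 with a library left out. COPZ1 turned to -0.0087 with total counts. The ranges were -0.030 to 0.0084 for COPA, -0.18 to 0.014 for COPB1, -0.17 to 0.062 for COPB2, 0.056 to 0.21 for COPE, -0.18 to 0.21 for COPG2 and -0.00037 to 0.014 for COPZ1. By Spearman's rho, 2 of the 5 genes most like ARCN1 were named again. The cause of these changes was not tested. With a library left out of these last 2 comparisons, 1 side is a lone library assumed to vary like the other side. The counts of the 1000-cell pair differed less (chi-square per gene 6.35) than those of the 10-cell pair (32.3) and the 100-cell pair (34.2), so calls with a lone library of 10 or 100 cells rest on that tighter pair and are not used here. Every subunit had at least 717 counts in each library, reads that are not independent molecules.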
